A study of Homo sapiens with 17 samples.

Results

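CDC25B, SPC24, EHD2, UCP2 and VIPR1 had the largest falls in RNA at the last time point of a toyocamycin time course in YB5 colon cancer cells. These 5 genes of the 19141 in the count table were chosen on the fitted fold change of that time point, among 4184 genes. All 4184 were lower at a false discovery rate (FDR) under 0.1. Their average level was at least 4 on the log2 CPM scale (CPM, counts scaled to the size of the library). Every toyocamycin library of that time was also below every DMSO library of that time. The values of the 5 genes at that time are therefore a description and were given no test. Hours 2, 10, 24 and 48 were not used to choose them. All 5 passed the filter on low counts in both fits. In outline, none of the 5 was called lower at 2 h, where VIPR1 was called higher only when same-numbered replicates were paired. CDC25B, SPC24 and EHD2 were lower at 10 h, and UCP2 and VIPR1 were not below DMSO until later hours.

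YB5 is a line derived from SW48 human colon cancer cells that carries a silenced green fluorescent protein reporter under a CMV promoter. Every group is this single line, given either 250 nM toyocamycin, an adenosine analogue made by Streptomyces that the study examined as an inhibitor of the kinase CDK9, or the solvent DMSO. Hours 2, 10, 24, 48 and 72 had 2, 1, 1, 1 and 3 DMSO libraries and 2, 2, 1, 1 and 3 toyocamycin libraries, 17 in all. Replicate 2 of each arm at 2 and 10 h made up batch 2 of the labels (4 libraries), so the only DMSO library at 10 h was in batch 2. Hours are those of the labels.

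Total counts ran from 8735465 to 22121364 per library. The lowest total belonged to toyocamycin at 10 h, replicate 2, which also had the highest share of mitochondrially encoded counts, 6.55% against 0.917 to 3.49% elsewhere, and values at 10 h are given with and without it. In the DMSO libraries the epithelial markers EPCAM, CDH1, CDX2, KRT8 and KRT18 had medians of 148 to 1982 CPM, whereas VIL1 and CDH17 were at 2.04 and 1.16 CPM and KRT20 and LGALS4 had medians of 0. Among 8 markers of other cell types, the highest median was 1.39 CPM (ACTA2). CPM are shares of a library, so less RNA of 1 gene and more RNA of the others cannot be told apart. With mitochondrially encoded genes as the scale instead of TMM, the median log2 fold change of all genes was -1.90 rather than 0.12 at 24 and 48 h together, and 9131 genes were lower and 1274 higher rather than 5413 and 5493.

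CDK9 is the catalytic subunit of P-TEFb, a kinase that lets paused RNA polymerase II move into productive elongation. The level of an mRNA reflects both how fast it is made and how fast it decays. The 5 genes serve different functions. CDC25B is a phosphatase that removes inhibitory phosphates from cyclin-dependent kinases at the start of mitosis. SPC24 is a subunit of the NDC80 complex, which ties kinetochores to spindle microtubules. EHD2 is an ATPase that sits at the necks of caveolae and restrains their movement. UCP2 is a carrier of the inner mitochondrial membrane, and VIPR1 is the receptor through which vasoactive intestinal peptide raises cyclic AMP in gut epithelium.

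The sequence before each start site is shown because the genes were chosen on their falls at the last time point and not on their promoters. Each runs from 250 to 36 bases before the start of the MANE Select transcript, 5′ to 3′ on the gene's own strand, from RefSeq (GRCh38.p14), and all 5 genes were matched. Capitals mark matches on either strand to the GC box (letters GGGCGG), the CCAAT box, the TATA box (letters TATAAA), the cell cycle homology region (letters TTTGAA) and the E2F core (letters TTCGCGC, with the variant spelled TTGGCGC), and no matches overlapped in these windows.
CDC25B, plus strand, chr20:3796060-3796274, is given first, and its window lies inside the annotated gene, upstream of a later start.
CDC25B: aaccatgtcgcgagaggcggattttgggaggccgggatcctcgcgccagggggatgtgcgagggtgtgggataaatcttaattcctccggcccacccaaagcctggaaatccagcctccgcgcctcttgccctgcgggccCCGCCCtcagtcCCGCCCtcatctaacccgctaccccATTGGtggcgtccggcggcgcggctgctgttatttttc
SPC24, minus strand, chr19:11155818-11156032, follows.
SPC24: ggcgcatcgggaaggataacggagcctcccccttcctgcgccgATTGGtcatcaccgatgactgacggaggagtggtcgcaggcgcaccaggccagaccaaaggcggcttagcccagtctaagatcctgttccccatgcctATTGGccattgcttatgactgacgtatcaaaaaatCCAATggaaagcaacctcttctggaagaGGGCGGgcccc
EHD2 is on the plus strand at chr19:47713172-47713386.
EHD2: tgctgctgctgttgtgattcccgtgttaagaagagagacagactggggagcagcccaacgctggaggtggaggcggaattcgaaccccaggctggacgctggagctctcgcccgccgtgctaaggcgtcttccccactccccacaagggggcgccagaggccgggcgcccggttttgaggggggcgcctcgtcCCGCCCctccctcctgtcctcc
UCP2 is on the minus strand at chr11:73982879-73983093.
UCP2: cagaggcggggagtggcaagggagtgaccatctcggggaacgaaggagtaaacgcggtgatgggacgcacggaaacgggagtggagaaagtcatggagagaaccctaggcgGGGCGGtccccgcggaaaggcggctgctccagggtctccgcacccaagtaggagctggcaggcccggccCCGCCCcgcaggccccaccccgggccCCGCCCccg
VIPR1 is on the plus strand at chr3:42502393-42502607, again inside the annotated gene.
VIPR1: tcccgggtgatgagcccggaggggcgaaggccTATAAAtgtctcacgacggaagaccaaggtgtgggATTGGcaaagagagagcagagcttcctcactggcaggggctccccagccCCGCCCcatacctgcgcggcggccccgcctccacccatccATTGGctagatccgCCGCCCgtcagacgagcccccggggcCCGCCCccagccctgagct

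A GC box was found in all 5 windows, with 3 matches each in UCP2 and VIPR1, 2 in CDC25B and 1 each in SPC24 and EHD2. Of 35116 promoter windows of the same length, 38.3% held it. CCAAT matched 3 times in SPC24, 2 times in VIPR1 and 1 time in CDC25B, and was found in 29.3% of all windows. TATAAA matched 1 time, in VIPR1 at position -218 from the start (7.99% of all windows). TTTGAA (11.9%) and the E2F cores (3.58%) matched in none of the 5. Bases nearer to the start than 36 were not searched, so whether any of these letters lie there is not known. GC content was 70.7% in UCP2, 68.4% in VIPR1, 67.4% in EHD2, 64.2% in CDC25B and 57.7% in SPC24, against a median of 57.7% over all windows. CCAAT was in the windows of CDC25B, SPC24 and VIPR1 but not in those of EHD2 or UCP2. The promoter windows listed were 4 for CDC25B and 2 each for UCP2 and VIPR1, and only that of the MANE Select start was searched. Which start YB5 cells use was not measured.

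CDC25B (ENSG00000101224, chromosome 20, 3786772 to 3806121, plus strand, GRCh38) showed the steepest early fall. In DMSO it stood at 107 and 103 CPM (2 h), 99.7 (10 h), 123 (24 h), 172 (48 h), and 216, 221 and 207 CPM (72 h). In toyocamycin it stood at 123 and 114 CPM (2 h), 8.78 and 13.2 (10 h), 4.06 (24 h), 3.50 (48 h), and 1.18, 1.95 and 1.74 CPM (72 h). Both toyocamycin libraries at 2 h were above both DMSO libraries of that hour, as also for UCP2 and VIPR1. The share of all genes with this order at 2 h was not counted, so nothing is read from it. From 10 h every toyocamycin library was below all 8 DMSO libraries, as for 23% of all genes at 10 h. At 2 h the log2 fold change was 0.18 (SE 0.149, edgeR FDR = 0.652). At 10 h it was -3.20 (SE 0.245, edgeR FDR = 5.8e-07), a mean of 11.0% of the DMSO level.

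SPC24 (ENSG00000161888, chromosome 19, 11131520 to 11155807, minus strand) had the steadiest level in DMSO, where its highest library was 1.44 times its lowest. The DMSO libraries gave 31.6 and 33.5 CPM (2 h), 38.6 (10 h), 44.2 (24 h), 43.6 (48 h), and 42.8, 45.4 and 42.2 CPM (72 h). The toyocamycin libraries gave 33.6 and 30.6 CPM (2 h), 8.64 and 6.19 (10 h), 2.06 (24 h), 0.895 (48 h), and 0, 0.278 and 0.695 CPM (72 h). The groups overlapped at 2 h. From 10 h on every toyocamycin library was below all DMSO libraries, as for 23% of all genes at 10 h. In the library at 0, a floor of 3 counts allows up to 0.295 CPM. The log2 fold change was -0.02 at 2 h (SE 0.233, edgeR FDR = 1) and -2.36 at 10 h (SE 0.322, edgeR FDR = 4.4e-05).

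EHD2 (ENSG00000024422, chromosome 19, 47713422 to 47743134, plus strand) was lower at 10 h to a smaller degree. Its DMSO levels were 99.4 and 70.5 CPM (2 h), 87.7 (10 h), 109.8 (24 h), 90.9 (48 h), and 154, 163 and 125 CPM (72 h). Its toyocamycin levels were 95.4 and 70.4 CPM (2 h), 40.1 and 26.6 (10 h), 7.63 (24 h), 1.87 (48 h), and 0.983, 1.20 and 1.74 CPM (72 h). In both arms the batch 2 library of 2 h was the lower, and the arms overlapped at that hour. From 10 h every toyocamycin library was below all DMSO libraries, as for 23% of all genes at 10 h. The log2 fold change was -0.04 at 2 h (SE 0.206, edgeR FDR = 0.990) and -1.39 at 10 h (SE 0.293, edgeR FDR = 0.00165). An unnamed long noncoding RNA gene overlaps EHD2 on the same strand.

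UCP2 (ENSG00000175567, chromosome 11, 73974672 to 73982843, minus strand) was not called lower at 10 h under any scaling tried. DMSO libraries held 40.3 and 35.3 CPM (2 h), 27.2 (10 h), 39.7 (24 h), 28.7 (48 h), and 62.1, 75.5 and 63.3 CPM (72 h). Toyocamycin libraries held 41.1 and 40.4 CPM (2 h), 56.4 and 41.3 (10 h), 13.3 (24 h), 1.14 (48 h), and 0.491, 0.463 and 0.174 CPM (72 h). At 10 h both treated libraries were above the DMSO library of that hour, and 24 h was the first hour below all 8 DMSO libraries, where 31.1% of all genes were. The log2 fold change was 0.11 at 2 h (SE 0.176, edgeR FDR = 0.831) and 0.85 at 10 h (SE 0.260, edgeR FDR = 0.0179). That call was lost with library size alone (0.37, edgeR FDR = 0.219), and with mitochondrially encoded genes as the scale the value turned to -0.24 (edgeR FDR = 0.811). The median of all genes at 10 h moved alongside, from 0.42 with TMM to -0.04 and -0.70.

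VIPR1 (ENSG00000114812, chromosome 3, 42489299 to 42537573, plus strand) was the last to pass below DMSO, and its level in DMSO varied most. It was at 41.9 and 38.1 CPM (2 h) in DMSO, then at 15.6 (10 h), 13.1 (24 h), 11.1 (48 h), and 82.8, 88.1 and 84.5 CPM (72 h). Under toyocamycin it was at 50.7 and 47.2 CPM (2 h), 29.5 and 34.4 (10 h), 13.3 (24 h), 2.20 (48 h), and 0.885, 0.278 and 0.435 CPM (72 h). The highest DMSO library was thus 7.96 times the lowest, against 1.44 to 2.78 times for the other 4 genes. At 24 h the arms were level, and only from 48 h was toyocamycin below all DMSO libraries, as for 34.3% of all genes at 48 h. At 2 h the log2 fold change was 0.29 (SE 0.176, edgeR FDR = 0.507). With the replicate number as a block, which the batch labels support at that hour, it was 0.28 and passed the threshold (edgeR FDR = 0.0858).

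At 10 h VIPR1 was higher in toyocamycin than in DMSO, with a log2 fold change of 1.03 (SE 0.257, edgeR FDR = 0.00523). As for UCP2, the call was lost with library size alone (0.59, edgeR FDR = 0.106), and the sign turned with mitochondrially encoded genes (-0.13, edgeR FDR = 0.903). Its difference came with a low DMSO library: against DMSO of 2 h in the same batch, the toyocamycin libraries of 10 h were at -0.50 (batch 1) and -0.15 (batch 2) on the log2 scale (CPM + 0.5). The strand setting of the counting is not given in the sources used here, so reads from genes that overlap on opposite strands cannot be told apart. VIPR1 overlaps the antisense gene VIPR1-AS1.

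**Figure D1:**
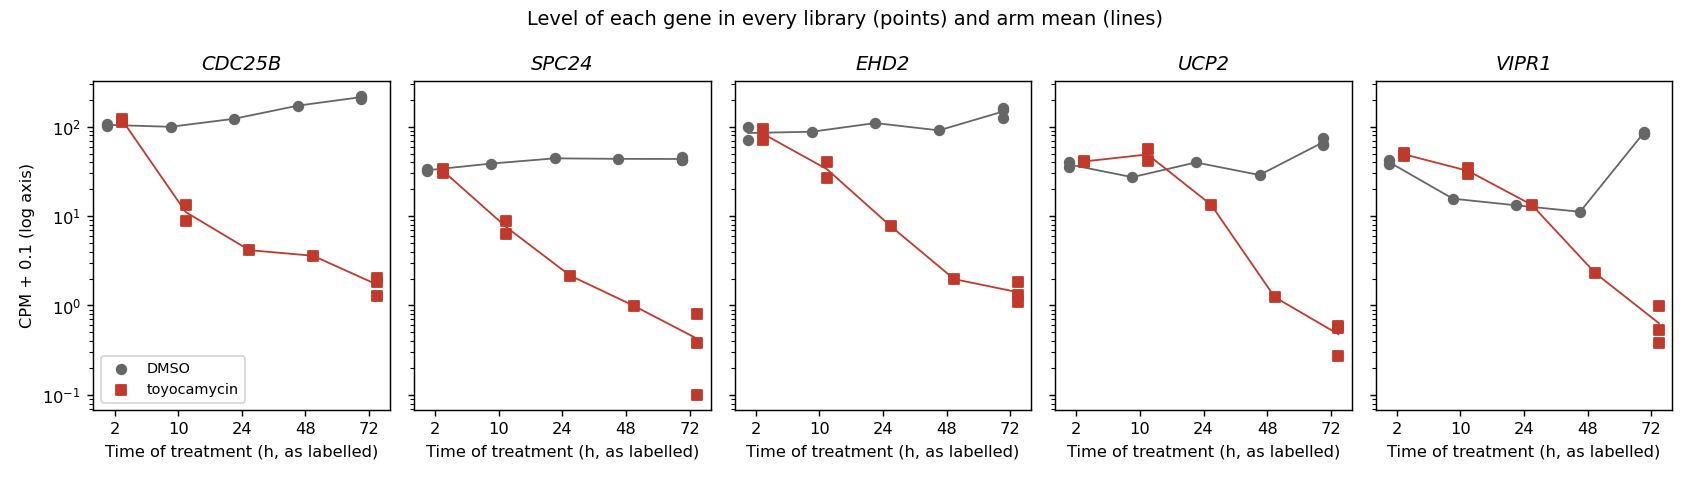
Level of each gene (CPM + 0.1, log axis) against hour of treatment, with hours spaced evenly. Points are libraries (grey circles DMSO, red squares toyocamycin) and lines join arm means. CDC25B, SPC24 and EHD2 separate from DMSO at 10 h, UCP2 at 24 h and VIPR1 at 48 h, and VIPR1 also drops in DMSO between 2 h (41.9 and 38.1 CPM) and 48 h (11.1 CPM).

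The first comparison asked whether the fall was under way at 2 h. None of the 5 genes was lower or higher at 2 h (edgeR, FDR under 0.1), against 8.42% of all 14491 genes tested that were lower and 0.518% that were higher. With the replicate number as a block, 2217 genes were lower and 1033 higher, rather than 1220 and 75, and VIPR1 was among the latter calls. Without the block, at an unadjusted p under 0.05, the count was also 0, and DESeq2 gave 0 as well. The fitted values, -0.04 to 0.29 on the log2 scale, lay within 2 standard errors of 0 for each gene.

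At 10 h CDC25B, SPC24 and EHD2 were lower (3 of 5, against 24.4% of 16521 genes) and UCP2 and VIPR1 were higher (2 of 5, against 20.4%). The DMSO arm at this hour is 1 library, assumed to vary like the other groups, and for UCP2 it was the lowest of the 8 DMSO libraries. Each count was the same without toyocamycin replicate 1 or replicate 2 at 10 h. Within batch 2, which held both arms at 10 h, the log2 differences were -2.88 for CDC25B, -2.55 for SPC24, -1.70 for EHD2, 0.60 for UCP2 and 1.12 for VIPR1 (CPM + 0.5, 1 library each, no test). The batch 1 library gave -3.43, -2.10, -1.12, 1.04 and 0.90 against the same DMSO library. The direction of every gene was thus the same in both treated libraries.

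Whether the effect changed between the hours was tested directly. From 2 to 10 h the log2 fold change fell by 3.37 for CDC25B (SE 0.316, edgeR FDR = 3.6e-05), by 2.35 for SPC24 (SE 0.416, edgeR FDR = 0.00113) and by 1.35 for EHD2 (SE 0.384, edgeR FDR = 0.0216), 3 of 5 genes against 15.9% of all genes. The test of EHD2 was lost with mitochondrially encoded genes as the scale (-2.23, edgeR FDR = 0.109). UCP2 and VIPR1 changed by 0.74 each (edgeR FDR = 0.129 and 0.118), which did not pass, so 0 of 5 were higher, against 10.2% of all genes. These 2 genes passed as higher with DESeq2's size factors (edgeR FDR = 0.0554 and 0.0527).

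At 24 and 48 h together all 5 genes were lower, against 37.4% of all genes. The mean log2 fold change was -5.25 for CDC25B (SE 0.192, edgeR FDR = 5.46e-11), -4.99 for SPC24 (SE 0.321, edgeR FDR = 3.81e-09) and -4.70 for EHD2 (SE 0.265, edgeR FDR = 1.12e-09). It was -3.10 for UCP2 (SE 0.224, edgeR FDR = 1.17e-08) and -1.14 for VIPR1 (SE 0.215, edgeR FDR = 2.19e-04). With mitochondrially encoded genes as the scale, the values were -7.30, -7.03, -6.76, -5.15 and -3.19 in the same order. With 1 library per arm at each hour, single hours had no test. At 24 h they gave -4.90, -4.40, -3.83, -1.57 and 0.03 in the order above, and at 48 h -5.59, -5.57, -5.57, -4.62 and -2.30. CDC25B, SPC24 and EHD2 had thus met at 48 h, and the joint value of VIPR1 came from 48 h. At 24 h 4 of the 5 were past -1, against 27.8% of all genes, and at 48 h all 5 were, against 29.9%.

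Between 10 h and the pair of later hours the effect fell further for all 5 genes, against 18.9% of all genes. The drop was largest for UCP2 (-3.96, SE 0.376, edgeR FDR = 8.1e-06) and EHD2 (-3.33, SE 0.441, edgeR FDR = 5.5e-05). It was -2.64 for SPC24 (SE 0.50, edgeR FDR = 7.48e-04), -2.19 for VIPR1 (SE 0.347, edgeR FDR = 2.03e-04) and -2.07 for CDC25B (SE 0.349, edgeR FDR = 3.22e-04). UCP2 and VIPR1 were among 477 genes (3.29% of those tested) that were higher at 10 h and lower at 24 and 48 h, whereas CDC25B, SPC24 and EHD2 were among 2839 (19.6%) that were lower at both. The contrasts share the libraries of 10 h.

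**Figure D2:**
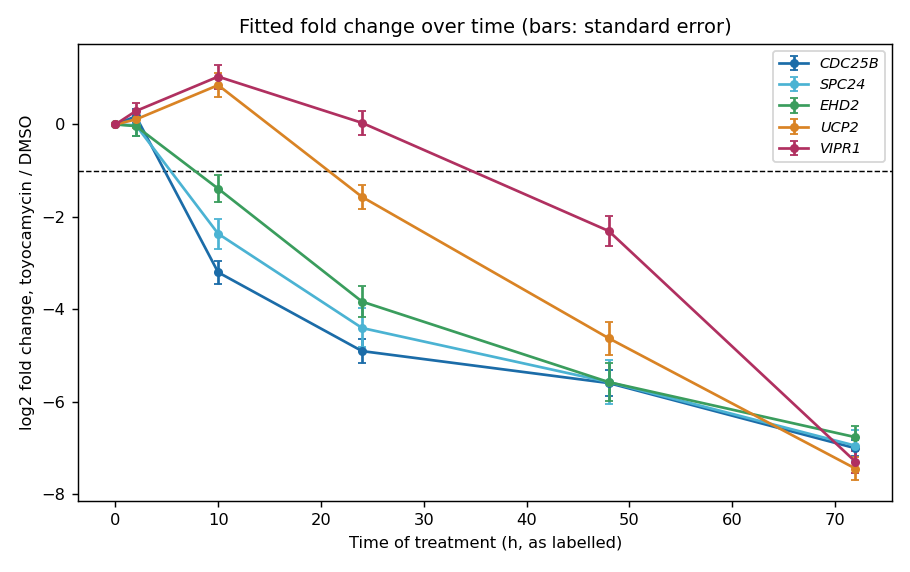
Fitted log2 fold change (toyocamycin over DMSO) against hour of treatment, with 0 set at 0 h. Bars are standard errors from the fit, which at 24 and 48 h rest on 1 library per arm and the spread of the other groups, and the dashed line marks -1. UCP2 and VIPR1 lie above 0 at 10 h and meet the other 3 genes near -7 at 72 h, between -7.44 and -6.76.

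The start of each fall was estimated as the hour at which a straight line between sampled hours crossed a log2 fold change of -1. CDC25B crossed at 4.79 h, SPC24 at 5.35 h and EHD2 at 7.70 h. UCP2 crossed at 20.7 h, between 10 and 24 h, and VIPR1 at 34.6 h, between 24 and 48 h. The first 3 crossings lie between the samples of 2 and 10 h, and their exact hour rests on the straight line. Over the 2 toyocamycin libraries of 10 h, the SD of the estimate was 0.218 h for CDC25B, 0.661 h for SPC24, 2.22 h for EHD2 and 0.441 h for UCP2, so that the gap between CDC25B and SPC24 was smaller than 1 SD of SPC24. The crossing of UCP2 also rests on 24 h, and that of VIPR1 on 24 and 48 h, with 1 library per arm at each hour. The error of those libraries is not in this SD and was not measured. Without toyocamycin replicate 1 at 10 h SPC24 came before CDC25B. In the other 10 of 11 settings, with the main fit among the 4 scalings, the order was CDC25B, SPC24, EHD2, UCP2, VIPR1. The setting with 96 h as the last time could not change the order, since all 5 genes crossed before 48 h. Leaving out a library of 2 or 10 h could not move the crossing of VIPR1, which rests on 24 and 48 h.

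The scale moved the late estimates most. With mitochondrially encoded genes the crossings were 3.86 h for CDC25B, 4.09 h for SPC24, 4.73 h for EHD2, 12.9 h for UCP2 and 15.8 h for VIPR1. With library size alone UCP2 crossed at 16.5 h and VIPR1 at 24.2 h. VIPR1 depended on the reference too: against the mean of all 8 DMSO libraries it crossed at 19.8 h, near UCP2 at 18.8 h, while CDC25B, SPC24 and EHD2 crossed at 3.60, 4.68 and 5.64 h. This reference was chosen after seeing the data.

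**Figure D3:**
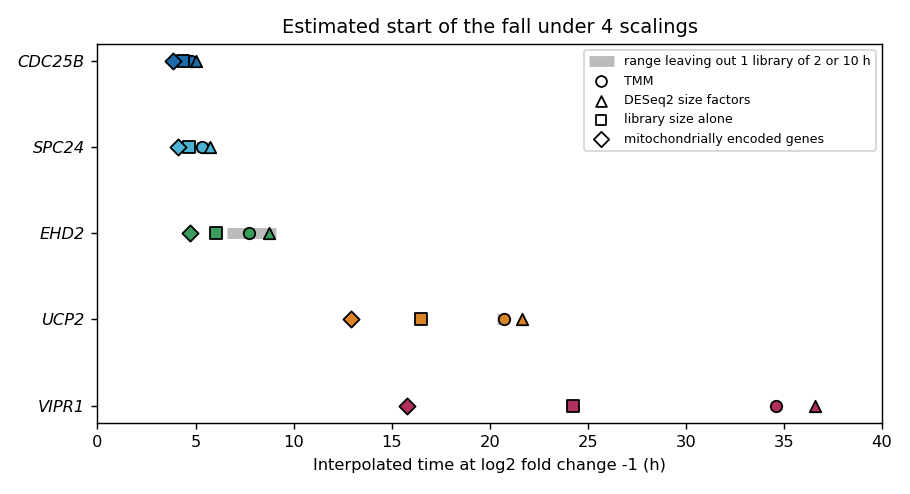
Interpolated hour at which each gene crossed a log2 fold change of -1, under 4 scalings (symbols). Grey bars give the range when 1 library of 2 or 10 h was left out. The 3 early genes stay under 10 h in all of them, UCP2 runs from 12.9 to 21.6 h and VIPR1 from 15.8 to 36.6 h.

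The shape of the falls also differed. Taken as an even decline from 2 to 10 h, the level relative to DMSO halved every 2.37 h for CDC25B, 3.41 h for SPC24 and 5.91 h for EHD2. From 10 to 24 h the figures were 8.22, 6.87 and 5.73 h, and 5.79 h for UCP2. CDC25B thus slowed after 10 h, EHD2 kept nearly the same rate, and UCP2 was close to EHD2 in that interval. From 24 to 48 h UCP2 halved every 7.85 h and EHD2 every 13.8 h. VIPR1 was fastest in the last interval, 4.81 h per halving from 48 to 72 h. Its DMSO level also rose in that interval, from 11.1 to a mean of 85.2 CPM. The interval ends at the hour used for the choice, and with the paper's 96 h as the last time the rate would be slower. These rates are descriptions of fitted values and have no test.

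At 72 h, the time used for the choice, the log2 fold changes were -7.44 for UCP2, -7.29 for VIPR1, -7.00 for CDC25B, -6.95 for SPC24 and -6.76 for EHD2. Without toyocamycin replicate 3 the value of SPC24 was -8.15. The next genes in the ranking were CCNE1 (-6.68), IDH2 (-6.55) and NDRG1 (-6.44), just outside the choice. Mean levels went from 67.0 ± 7.42 to 0.376 ± 0.176 CPM for UCP2, from 85.2 ± 2.69 to 0.532 ± 0.315 for VIPR1 and from 214 ± 7.23 to 1.62 ± 0.396 for CDC25B (SD, n = 3). They went from 43.5 ± 1.72 to 0.324 ± 0.350 CPM for SPC24 and from 147 ± 20.1 to 1.31 ± 0.388 for EHD2 (SD, n = 3). The treated libraries held few reads, 0 to 21 counts per gene and library.

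With so few reads, the order among the 5 was not resolved. Pooled over the 3 libraries, the DMSO level was 181 times the toyocamycin level for UCP2 (exact Poisson 95% interval 104 to 351), 163 times for VIPR1 (102 to 279), 131 times for CDC25B (100.3 to 175), 128 times for SPC24 (71.7 to 257) and 111 times for EHD2 (82.2 to 153). These intervals cover the counting error of the toyocamycin reads alone, and all 5 overlap. Without toyocamycin replicate 2 at 72 h, 3 of the 5 were still among the 5 largest falls. Without the minimum on level and the demand that the arms not overlap, the 5 genes ranked 9, 10, 15, 17 and 20. The fall of VIPR1 was measured against its highest DMSO level: set against DMSO at 48 h, the mean at 72 h was 20.8 times lower, compared with 69.5 to 134 times for the other 4 genes.

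Median DMSO levels were also divided by the kilobases of all annotated exons of each gene. They were then 37.7 CPM for CDC25B, 27.2 for EHD2, 15.0 for SPC24, 14.4 for UCP2 and 5.42 for VIPR1. The length of the transcripts that YB5 cells express was not measured, so levels of different genes compare only roughly. By this rough measure SPC24 and UCP2 were alike in level, and they crossed at 5.35 and 20.7 h.

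The kinetochore genes around SPC24 are the partners it needs to hold microtubules. Of 14 tested, 2 were lower at 2 h, 7 at 10 h with none higher, and 11 at 72 h with 1 higher. Among all genes 8.42%, 24.4% and 41.9% were lower at these hours, and 20.4% and 47% were higher at 10 and 72 h. The other NDC80 subunits were lower at 10 h, NDC80 by a log2 fold change of -2.42 (SE 0.231, edgeR FDR = 2.35e-06), NUF2 by -1.88 and SPC25 by -1.43. At 72 h they stood at -1.90, -1.99 and -3.19. SPC24 was at -2.36 at 10 h, close to NDC80. MIS12, of the complex that anchors NDC80, was the exception: it was lower at 2 h (-1.17, edgeR FDR = 0.00972) and higher at 72 h (2.22, edgeR FDR = 7.91e-08), from 6.96 ± 1.0 to 31.9 ± 10.2 CPM (SD, n = 3). The median of the 14 genes was -2.20 at 72 h, against 0.18 for all genes.

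Genes of mitotic entry, the setting in which CDC25B acts, were mostly lower at 10 and 72 h. Of 16 tested, 5 were lower at 2 h and none higher, 12 were lower and 1 higher at 10 h, and 15 were lower and none higher at 72 h. The shares of all genes that were lower at these hours were 8.42%, 24.4% and 41.9%. CDC25A, the phosphatase of the G1 to S step, was already lower at 2 h (-1.48, SE 0.212, edgeR FDR = 3.7e-04) and at 10 h (-1.17). Later values of CDC25A were -0.34 (24 h) and -1.40 (48 h), with 1 library per arm and no test, and -1.50 (72 h). CDC25C was at -2.07 at 10 h and -2.92 at 72 h. CDC25B itself was at 0.18 at 2 h and -3.20 at 10 h, and the difference from CDC25A was not tested. The 8 calls at 2 h over all 5 families, MIS12 and CDC25A among them, were lost with mitochondrially encoded genes as the scale, although the folds of MIS12 (-1.29) and CDC25A (-1.57) were no smaller. WEE1, the kinase that opposes CDC25, was lower at 2 and 10 h (-1.32 and -1.34) and at -0.18 at 72 h (edgeR FDR = 0.267). CCNB1, the mitotic cyclin, was at -2.51 at 10 h and -2.55 at 72 h.

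Among genes near EHD2, EHD4 was lower (-2.96 at 72 h, edgeR FDR = 9.0e-11), whereas EHD1, the endosomal member, was at 0.13 (edgeR FDR = 0.429) with 181 ± 26.9 CPM in DMSO and 194 ± 26.0 in toyocamycin (SD, n = 3). The coat proteins of caveolae were divided. CAV1, the main coat protein, rose from 341 ± 49.7 to 2514 ± 49.9 CPM at 72 h (log2 fold change 2.92, edgeR FDR = 1.15e-10), and CAV2 (2.09) and CAVIN1 (2.67) rose as well. CAVIN3, another coat protein, was lower, at -1.54 (edgeR FDR = 0.00230), with 1.48 ± 0.429 CPM in DMSO and 0.486 ± 0.168 in toyocamycin (SD, n = 3). PACSIN3 and PACSIN2, which bend membranes at the same sites, were at -5.97 and -2.51. Over the list, 3 of 10 tested were lower and 2 higher at 10 h, against 24.4% lower and 20.4% higher among all genes. At 72 h 4 of 9 were lower and 3 higher, against 41.9% lower and 47% higher among all genes. CAV1 was also higher at 10 h (1.39, edgeR FDR = 8.3e-04), in the libraries in which EHD2 was lower, but this call was lost with mitochondrially encoded genes as the scale (0.27).

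Of the 6 uncoupling and related carriers tested beside UCP2, none was lower and 1, SLC25A10, was higher at 10 h (1.22, edgeR FDR = 0.0150). At 72 h 4 were lower and 1 higher. Among all genes, 24.4% were lower and 20.4% higher at 10 h, and 41.9% and 47% at 72 h. SLC25A11, the oxoglutarate carrier, was at -3.65 and SLC25A10, the dicarboxylate carrier, at -3.30. SLC25A10 thus had the order of UCP2, higher at 10 h and lower at 72 h, and both of these calls for 10 h were lost with mitochondrially encoded genes as the scale. UCP3, the carrier of muscle, was at 0.225 ± 0.140 CPM in DMSO and 0.828 ± 0.124 in toyocamycin at 72 h (1.86, edgeR FDR = 0.00502), and UCP1 was not tested.

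In the list of VIP and other class B receptors and cyclic AMP signalling, 2 of 17 genes tested were lower and 3 higher at 10 h. The shares of all genes at that hour were 24.4% and 20.4%. At 72 h 6 of 12 were lower and 5 higher. These shares were near those of all genes at 72 h (41.9% lower, 47% higher). The lower genes were ADCY3, ADCY6, ADCY7, ADCY9, PRKACA and PRKAR2A. The higher genes were the receptors VIPR2, GIPR and GCGR, and also GNAS and PRKAR1A. Of the 5 higher values, 3, those of GNAS, GIPR and PRKAR1A, turned negative with mitochondrially encoded genes as the scale. VIPR2, the sister receptor, went from 0.0594 ± 0.0649 to 1.33 ± 0.297 CPM at 72 h (4.32, edgeR FDR = 4.81e-05), and GCGR, the glucagon receptor, from 0.0143 ± 0.0248 to 3.94 ± 0.868 CPM, both from at or near 0 reads. GNAS, the stimulatory G protein, was higher at 10 h (1.35, edgeR FDR = 0.00123), a call lost with mitochondrially encoded genes (0.28). At 72 h it was at 0.35, a value that turned negative with library size alone (-0.25) and mitochondrially encoded genes (-0.73). ADCY6, an adenylyl cyclase, was at -5.20 and PRKACA, a catalytic subunit of protein kinase A, at -3.33 at 72 h. None of the 12 genes tested at 2 h was called there.

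**Figure D4:**
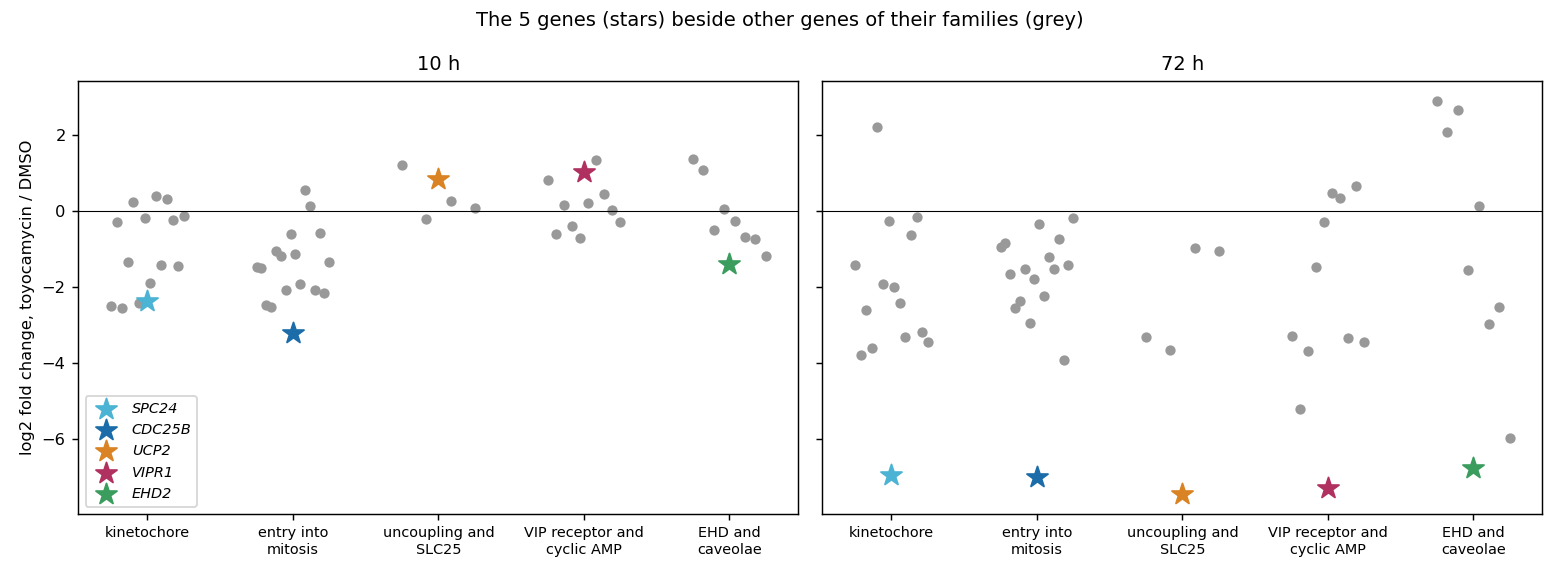
Log2 fold change at 10 h (left) and 72 h (right) for genes of 5 families with at least 1 CPM in DMSO at 72 h (grey points) and for the 5 genes themselves (stars). At 10 h CDC25B lies at the bottom of its list while UCP2 and VIPR1 lie above 0, and at 72 h each of the 5, chosen for that, lies under the rest of its list.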

How the data were processed

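Polyadenylated RNA of YB5 cells was sequenced as paired ends. Per the labels, reads were aligned to GRCh38 with STAR 2.7.5a. The authors deposited whole-number counts per gene, not normalized, and these counts were used as given. Groups, hours, replicates and batches came from the labels. The last time is 72 h there and 96 h in the paper, and the latter was an alternative. Also, 1 column of the count table matched no sample and was not used, and neither was the authors' own table of comparisons (fold changes and p-values).

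Gene identifiers of 19080 of 19141 genes were matched to symbols. Counts were filtered with filterByExpr, scaled by TMM and fitted with edgeR 4.0.16 (R 4.3.3; glmQLFit, glmQLFTest) with a coefficient per treatment and hour, and p-values were adjusted by Benjamini-Hochberg over all genes tested (FDR under 0.1). The 14 libraries without 10 h gave 2, 24, 48 and 72 h (14491 genes), and all 17 gave 10 h and the comparisons with it (16521 genes). Levels are CPM with TMM factors of all 17. The fit was tested on simulated data. Same-group libraries differed beyond sampling noise (chi-square per degree of freedom 5.73 to 67.0) and each counted as a replicate. Total counts of 8735465 to 22121364 leave 3 counts as the floor. Intervals and floors cover counting error only.

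Alternatives were DESeq2 1.42.0 (Wald test and size factors), library size alone, mitochondrially encoded genes as the scale, no filter, the later form of the quasi-likelihood test, batch as a term, a replicate block and leaving out each replicate. At 2 h replicate numbers match the batches of the labels and deviations of same-numbered libraries correlated (r = 0.307), so they pair. Named genes are the 5, those ranked 6 to 8 at 72 h, the family lists and the 3 genes nearest to each of the 5 by Pearson's r, of which 1 is not reported here. The 5 genes and all lists were chosen with earlier results of these data known.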

Additional observations from a re-analysis of the deposited data

Results flagged for a closer look

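The treatment effect differed between 2 and 10 h for 3 of the 5 genes by edgeR's test of the difference itself (FDR under 0.1). The log2 fold change at 10 h minus that at 2 h was -3.37 for CDC25B. It was -2.35 for SPC24. It was -1.35 for EHD2.

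The effect at 24 and 48 h together also differed from that at 10 h for all 5 genes by the same test. The difference was -3.96 for UCP2, where the effect went from 0.85 to -3.10. It was -2.19 for VIPR1, where it went from 1.03 to -1.14. It was -3.33 for EHD2, -2.64 for SPC24 and -2.07 for CDC25B, which were already lower at 10 h. Markers of other cell types, at medians of at most 1.39 CPM in DMSO, and the share of mitochondrially encoded counts, 1.40 to 3.49% at 24 and 48 h and 2.82 to 6.55% at 10 h, are the values that accompany these differences, and their part in them was not tested.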

How the results depend on the processing

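The alternative scalings, filter, tests and batch term gave 0 of the 5 genes lower at 2 h, 3 lower at 10 h and 5 lower at 24 and 48 h together. Leaving out a library at 2 or 10 h, or the block at 2 h, left the count at that hour as it was. No block was possible at 10, 24 or 48 h, where an arm had 1 library. The count with a larger fall at 10 h than at 2 h was 3, or 2 with mitochondrially encoded genes as the scale, and 5 genes fell further after 10 h throughout. The cause of the changes below was not tested.

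With mitochondrially encoded genes as the scale, 87 genes were lower and 12 higher at 2 h, 503 were higher at 10 h (with 0 of the 5), 9131 lower and 1274 higher at 24 and 48 h, 136 higher in 10 against 2 h, and 1854 lower and 184 higher in the later hours against 10 h. Of the family genes, 0 were then lower at 2 h, 1 higher at 10 h and 6 higher at 72 h. UCP2 turned to -0.071 at 2 h, -0.24 at 10 h and -0.17 in 10 against 2 h, and VIPR1 to -0.13 at 10 h and -0.26 in 10 against 2 h. Crossings were then 3.86 h (CDC25B), 4.09 h (SPC24), 4.73 h (EHD2), 12.9 h (UCP2) and 15.8 h (VIPR1). With library size alone, 1872 genes (0 of the 5) were higher at 10 h, 3614 higher at 24 and 48 h, and 4134 lower and 896 higher in 10 against 2 h, with crossings at 4.38 h (CDC25B), 4.67 h (SPC24), 16.5 h (UCP2) and 24.2 h (VIPR1). With DESeq2 size factors, 2 of the 5 were higher in 10 against 2 h, SPC24 was at 0.017 at 2 h, and crossings were 5.03 h (CDC25B), 21.6 h (UCP2) and 36.6 h (VIPR1). The DESeq2 Wald test gave 2 of the 5 and 3050 genes higher in 10 against 2 h, 11 family genes higher at 10 h, and 0.017 for SPC24 at 2 h. The later quasi-likelihood form gave 2 of the 5 higher in 10 against 2 h. Batch as a term gave 6239 genes and 14 family genes higher at 10 h, and 2530 genes and 1 of the 5 higher in 10 against 2 h. With all 17 libraries in the fit, 812 genes were lower and 29 higher at 2 h. VIPR1 at 24 h alone was at 0.034.

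With the replicate block at 2 h, 2217 genes were lower and 1033 higher, 1 of the 5 (VIPR1) was higher, and 13 family genes were lower and 7 higher. At 72 h the same-numbered libraries did not deviate together (r = -0.105, 0.0427 and -0.0876), so they share only a number, and the block left 4 of the 5 among the 5 largest falls. It changed no other call of the 5.

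Leaving out 1 replicate gave 761 to 1159 genes lower and 53 to 158 higher at 2 h (761 without toyocamycin replicate 2, 158 without DMSO replicate 1), 3489 to 6447 higher at 10 h (6447 without toyocamycin replicate 1), 1243 to 2959 genes and 0 to 1 of the 5 higher in 10 against 2 h, 8 to 16 family genes higher at 10 h, and 3 to 5 of the 5 among the 5 largest falls at 72 h. EHD2 at 2 h ranged from -0.27 to 0.23, SPC24 at 2 h from -0.086 to 0.049, and the crossing of CDC25B from 4.56 to 5.04 h. SPC24 at 72 h ranged from -8.15 to -6.40. Depth limits the 72 h values, since 0 to 21 counts per gene and library remained in toyocamycin.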

Other observations

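The genes whose levels over the 17 libraries were most like each of the 5 (Pearson's r of log2 CPM, 10416 genes with an average log2 CPM of at least 2) are given as a description, since all libraries share the 2 arms. CDC25B was followed most closely by CDAN1 (r = 0.993), SERPINH1, a collagen chaperone (0.992), and RTKN (0.992). Nearest to SPC24 were MYBL2, a cell cycle transcription factor (0.994), and SLC8B1 (0.991). EHD2 had OGDH, a subunit of the oxoglutarate dehydrogenase complex (0.995), RRBP1 (0.994) and MARK4 (0.993). UCP2 had HEBP2 (0.992), ACAD9 (0.991) and CISD3 (0.990), the last 2 encoding mitochondrial proteins. VIPR1 had TMEM62 (0.989), SPTSSB (0.980) and SERINC5 (0.979). The number of genes with r over 0.9 was 900 for VIPR1 and 1358 to 1904 for the other 4 genes.

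The neighbours of CDC25B and UCP2 differed at 10 h, when the log2 fold changes were -2.52, -1.91 and -2.03 for CDAN1, SERPINH1 and RTKN, and 0.71, 0.37 and 0.42 for HEBP2, ACAD9 and CISD3. At 72 h each neighbour named here was negative, from -5.64 (CISD3) to -3.17 (ACAD9). The neighbours were picked on all 17 libraries, those of 10 and 72 h included. Their directions at these hours therefore follow from the choice and are no separate result. Among the 5 themselves r ran from 0.829 (CDC25B and VIPR1) to 0.982 (SPC24 and EHD2), and UCP2 and VIPR1 had 0.963.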
